A study of Mus musculus with 5 samples.

Results

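The Cyp2 cytochrome P450 family was described in mouse liver tumours, in the 48 rows of the deposited gene table whose symbol is Cyp2, a lower-case letter and digits. Of these, 28 reached 1 FPKM (a fragment count corrected for gene length and for library size) in at least 1 of 5 libraries and are described here, out of 22287 rows in all. The family label rests on the gene symbols alone, and membership on the symbols and that level. The family was chosen with earlier results of these data known. Tumours were taken from C57BL/6 mice treated for 5 months with the carcinogen DEN and the hepatotoxin CCl4, which both genotypes received. There were 2 libraries from wild type tumours (WT 1 and WT 2) and 3 from tumours of lnc-CTHCC-/- mice (KO 1, KO 2 and KO 3), which lack a long non-coding RNA. The sources used here give neither the age and sex of the mice nor how the allele was made, and do not say whether libraries of a genotype came from separate mice. Untreated liver and the lnc-CTHCC transcript itself were not analysed here.

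P450 enzymes are haem proteins of the endoplasmic reticulum that insert an oxygen atom into their substrate, with electrons passed on by P450 reductase (Por). In liver the Cyp2 family oxidises drugs, carcinogens, steroids, bile acids and fatty acids, and some members turn CCl4 or nitrosamines such as DEN into reactive forms. Many mouse Cyp2 genes lie in tandem clusters of near copies, differ between the sexes under the control of growth hormone, or are restricted to hepatocytes around the central or the portal vein. The nuclear receptors CAR (Nr1i3) and PXR (Nr1i2) switch on some of them when foreign compounds arrive.

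The libraries summed to between 526229 (KO 1) and 552619 (WT 1) FPKM, with unknown depth. Serum albumin (Alb) took 14.1% to 17.1% of a library, and all 12 hepatocyte markers of the table passed the expression filter. All of 7 lung airway markers stayed under 1 FPKM in every library, with Scgb1a1 and Sftpc listed at 0, as were the intestinal factors Cdx1 and Cdx2. Transcripts of the Y chromosome were found in all libraries, with Ddx3y between 3.97 and 10.57 FPKM, and Xist was not analysed here. WT 1 had the lowest Ddx3y value. WT 1 also stood apart in the median ratio of its genes to the average library, which was 0.880 there and 0.974 to 1.10 in the other libraries. In bulk tumour RNA, fewer cells of a type and less RNA per cell cannot be told apart.

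Cyp2a4 and Cyp2a5 show how alike the members can be, and why counts of a single member carry an uncertainty of their own. Cyp2a4, a steroid hydroxylase of mouse liver, and Cyp2a5, the coumarin hydroxylase that also acts on nicotine and nitrosamines, differ at 23 of 1482 coding bases (98.4% identity). The stretch of 120 bases with most differences, coding bases 550 to 669 counted from the start codon on the sense strand, is shown for both from GENCODE vM21. Capitals mark the 6 bases that differ between them.

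Cyp2a4: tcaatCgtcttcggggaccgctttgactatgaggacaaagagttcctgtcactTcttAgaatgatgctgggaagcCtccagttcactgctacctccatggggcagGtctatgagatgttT

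Cyp2a5: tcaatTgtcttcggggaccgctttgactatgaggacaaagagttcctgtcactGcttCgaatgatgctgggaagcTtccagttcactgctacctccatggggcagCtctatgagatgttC

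Over the 28 members, coding sequences of the same subfamily had a median identity of 78.6% in 73 pairs, and those of different subfamilies 63.2% in 305 pairs. Other close pairs were Cyp2c40 and Cyp2c68 (98.1%), Cyp2c40 and Cyp2c69 (97.9%), and Cyp2a12 and Cyp2a22 (97.0%). As a measure of what reads cannot separate, windows of 100 bases of each member's transcript were looked for in the transcripts of all other genes. The share found elsewhere was 44.1% for Cyp2c40, 36.3% for Cyp2c69, 23.7% for Cyp2c67 and 19.8% for Cyp2c68. It was 14.8% for Cyp2d10, 14.4% for Cyp2a5, 11.2% for Cyp2a4 and 9.86% for Cyp2d9. Cyp2c29, Cyp2c70, Cyp2f2, Cyp2j5, Cyp2r1 and Cyp2u1 shared no window with another gene. The sources used here do not say how reads that match several genes were assigned, so the split of values inside these clusters is uncertain. Cyp2a4, Cyp2f2 and Cyp2u1 also overlap an antisense gene in the annotation, whose reads could not be told apart if strand was not used.

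**Figure D1:**
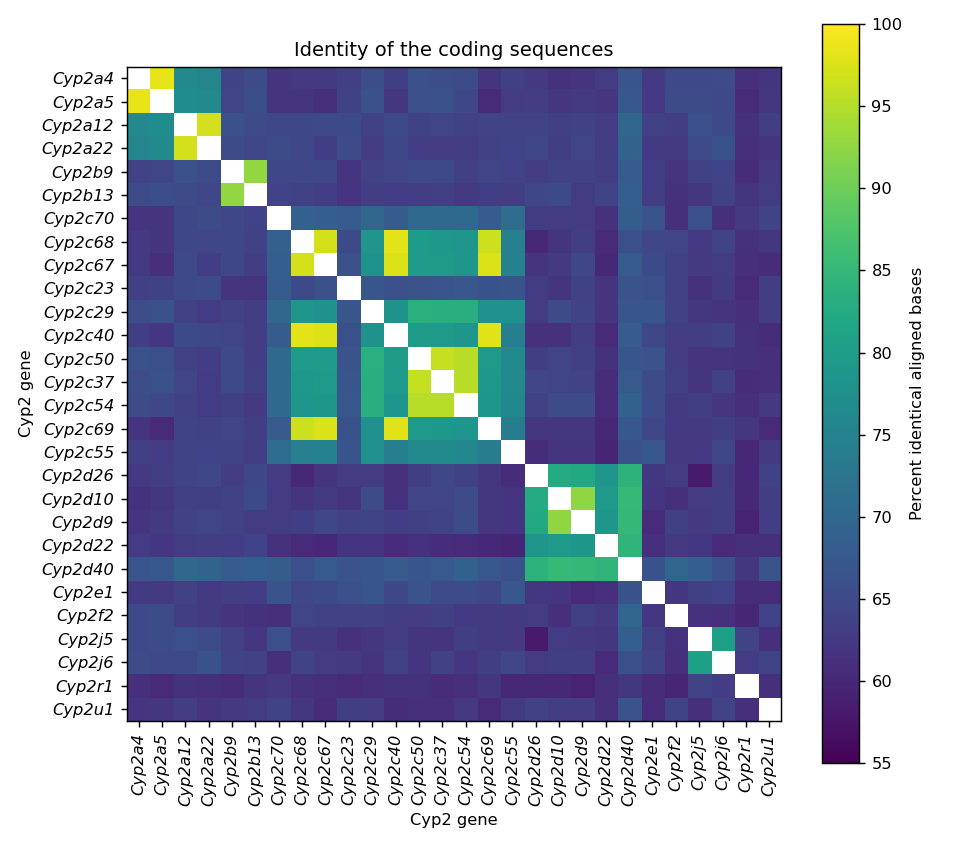
Percent of identical bases between the aligned coding sequences of the 28 Cyp2 genes, in subfamily order on both axes, with the colour scale from 55% to 100%. The brightest blocks are Cyp2a4 with Cyp2a5 (98.4%) and the group of Cyp2c40, Cyp2c67, Cyp2c68 and Cyp2c69; the annotated coding sequence of Cyp2d40 is short (1014 bases), and its identities cover that part alone.

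By position, 11 of the members form the Cyp2c group on chromosome 19, 9 lie on chromosome 7 (Cyp2a, Cyp2b, Cyp2f2, Cyp2r1 and Cyp2e1), 5 form the Cyp2d cluster on chromosome 15, 2 are the Cyp2j genes of chromosome 4, and Cyp2u1 lies on chromosome 3 (GRCm38, the assembly of mm10).

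Transcripts of the family were dominated by a few genes, and their total overlapped between the genotypes. All 48 rows together summed to 5581 and 4661 FPKM in the WT libraries and to 5614, 5832 and 5234 FPKM in the KO libraries. The mean was 5121 ± 650.5 (SD, n = 2) in WT and 5560 ± 302.7 (SD, n = 3) in KO tumours, and the values overlapped (ratio 1.09). Without Cyp2a4 the sum was 2715 and 2856 FPKM (WT) against 2600, 3247 and 2998 (KO), and KO 1 and KO 2 held the lowest and the highest value. With groups this small the lowest two-sided p of an exact permutation test is 0.1, and the sum was not tested. The sum was 0.879% to 1.08% of a library and 81.7% to 91.7% of the FPKM of all P450 rows. Cyp2a4 alone made up 38.7% to 53.7% of it and ranked at place 30 of all 22287 genes by mean FPKM, followed by Cyp2d26 at place 78 and Cyp2a5 at place 83.

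**Figure D2:**
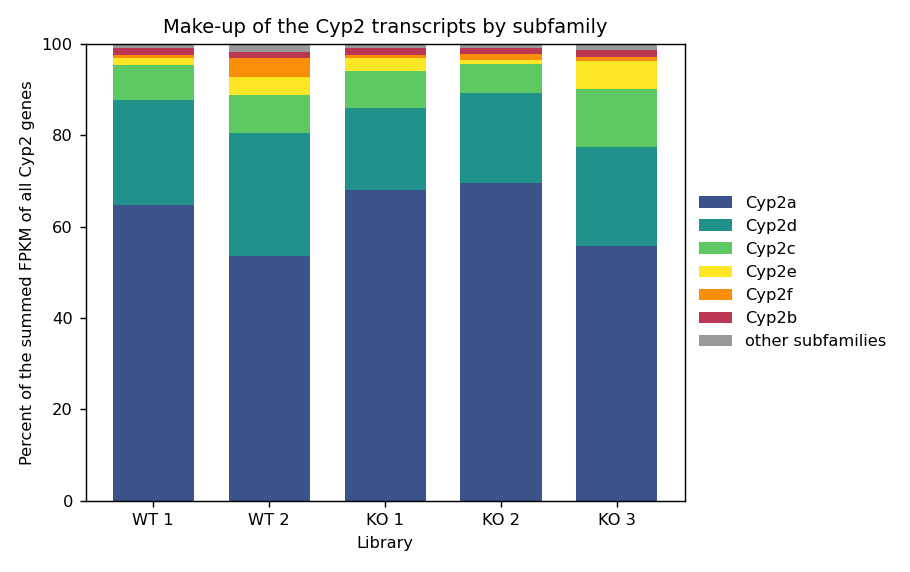
Percent of the summed FPKM of all Cyp2 rows taken by each subfamily (bars from 0 to 100%) in each of the 5 libraries. Cyp2a takes 53.5% (WT 2) to 69.6% (KO 2), Cyp2d 17.9% to 27.0%, and Cyp2c and Cyp2e take most in KO 3 (12.6% and 6.13%).

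No member differed between the genotypes past the threshold. Of 28 members, 27 had a mean of at least 1 FPKM and entered the fit over 10132 genes (limma on log2(FPKM + 1)), and 0 of 27 had a Benjamini-Hochberg adjusted p under 0.05. In the whole fit 0.00987% of genes did, which is 1 gene, Onecut1. At an unadjusted p under 0.05 by limma there was 1 member, Cyp2u1, against 3.23% of all genes. The median log2 difference (KO minus WT) was 0.09 over the members and 0.05 over all genes tested, and 17 of 27 members were higher in KO, against 61.4% of all genes. Without KO 3, 11 of 27 members were higher (64.5% of all genes), and without WT 1, 13 of 27 (39.8% of all genes). After median-ratio rescaling 16 of 27 members and 50.6% of all genes were higher. WT and KO values did not overlap in 1 member of 27, against 15.1% of all genes. KO lay below WT in that member (5.29% of all genes), and above it in 0 members (9.78% of all genes). By the authors' deposited table, 0 of the 48 rows had a false discovery rate under 0.05, against 36 of all 22287 genes. A p under 0.05 was given there for 3 of the 48 rows, Cyp2u1, Cyp2d9 and Cyp2b10, and for 619 of all genes.

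**Figure D3:**
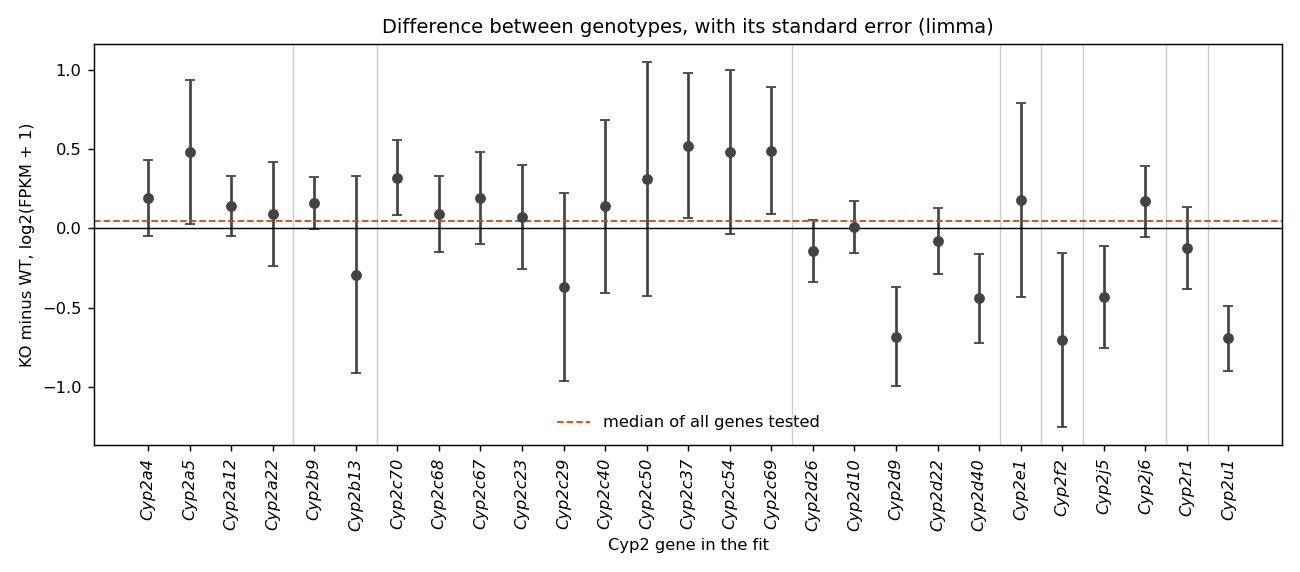
Difference of KO from WT in log2(FPKM + 1) for the 27 Cyp2 genes in the fit, with the standard error from limma as bars, and the median of all genes tested as a dashed line. Differences run from -0.70 (Cyp2f2) to 0.52 (Cyp2c37), none past the threshold, and the bars are widest for Cyp2c50, Cyp2b13, Cyp2e1 and Cyp2c29.

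The members differed more from library to library than most genes did. Between WT 1 and WT 2 their median absolute difference was 0.61 on the log2(FPKM + 1) scale. Among the KO libraries it was 0.65 between KO 2 and KO 3, 0.40 between KO 1 and KO 3, and 0.38 between KO 1 and KO 2. Between a WT and a KO library it was 0.31 to 0.62, so the ranges within and between genotypes overlapped. For all genes that reached 1 FPKM the same quantity was 0.18 to 0.31 over all pairs of libraries. The ratio of a member's highest to its lowest library had a median of 2.58, and it exceeded 5 in 8 of 28 members, against 2.48% of all genes above 0 in every library. These 8 were Cyp2b13, Cyp2e1 and 6 of the Cyp2c genes.

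**Figure D4:**
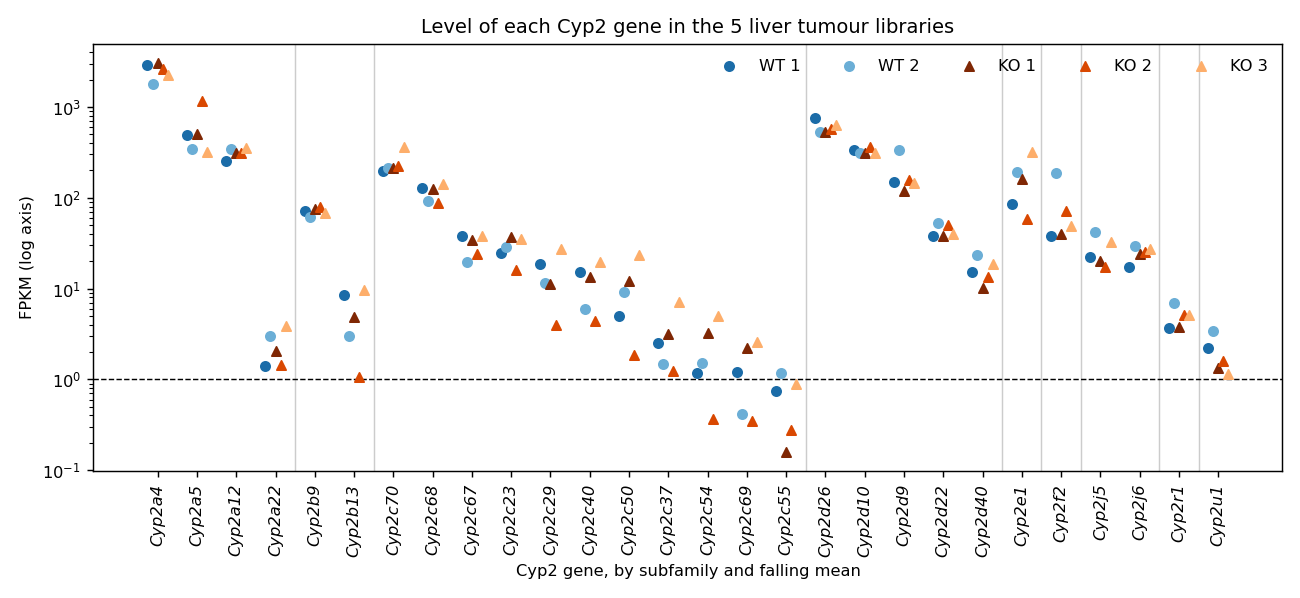
FPKM of the 28 Cyp2 genes on a log axis in each library (circles WT, triangles KO), by subfamily and falling mean, with 1 FPKM as a dashed line. Cyp2a4 lies above all others, and the KO triangles of Cyp2c50 and Cyp2c54 spread 12.7-fold and 13.3-fold.

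The Cyp2a subfamily, on chromosome 7, held the most abundant transcripts. Cyp2a4 (26307169 to 26315088, plus strand) was at 2866 and 1805 FPKM (WT) against 3014, 2585 and 2236 (KO). WT 2 was lowest and KO 1 highest, and the genotypes overlapped. The log2 difference of 0.19 (SE 0.238) was -0.14 without WT 2 and 0.52 without WT 1. Cyp2a5 (26835305 to 26843548, plus strand) was at 493 and 340 FPKM (WT) against 502, 1160 and 321 (KO). KO 2 thus stood 3.62-fold above KO 3, the other libraries lay between 321 and 502 FPKM, and the log2 difference of 0.48 (SE 0.454) was -0.03 without KO 2. Cyp2a4 did not share that peak, being lower in KO 2 than in KO 1. Cyp2a12, which hydroxylates bile acids in mice, was even across libraries at 252 to 356 FPKM. Cyp2a22, its close copy, was at 1.42 to 3.90 FPKM.

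In the Cyp2b subfamily, Cyp2b9 was the steady member and Cyp2b13 the variable one. Both are known as female-biased genes of mouse liver. Cyp2b9 (plus strand of chromosome 7, 26173411 to 26210661) was at 71.1 and 61.7 FPKM (WT) against 74.7, 79.0 and 68.7 (KO), a range of 1.28-fold. Cyp2b13 was at 8.56 and 3.01 FPKM (WT) against 4.80, 1.07 and 9.76 (KO), so that KO 3 was 9.12-fold above KO 2. Cyp2b10, the classic CAR target induced by phenobarbital, missed the level of 1 FPKM. Its values of 0.57 and 0.73 FPKM in WT lay above 0.20, 0.04 and 0.37 FPKM in KO, and the authors' deposited table gives it a log2 fold change of -1.68 with a p of 0.0353.

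The Cyp2c subfamily had 11 members, of which 10 entered the fit, with 9 higher and 1 lower in KO (61.4% of all genes were higher) and a median log2 difference of 0.25, none past the threshold. Both values moved with the KO libraries. Without KO 3, 5 were higher and 5 lower, while 64.5% of all genes were higher. Without KO 2, 10 were higher and 0 lower (61.6% of all genes higher), with a median of 0.57. The summed subfamily was at 433 and 385 FPKM (WT) against 454, 365 and 659 (KO), with KO 2 lowest and KO 3 highest. Cyp2c70, the enzyme that makes muricholic acids from chenodeoxycholic acid in mice, was the most abundant. Cyp2c70 (minus strand of chromosome 19, 40153353 to 40187333) was at 199 and 212 FPKM (WT) against 209.9, 225 and 358 (KO). KO 3 alone stood clear of the rest, and the log2 difference of 0.32 (SE 0.237) was 0.08 without it. Cyp2c68 was at 86.8 to 141 FPKM, Cyp2c67 at 19.8 to 37.8 FPKM, and Cyp2c23, an arachidonic acid epoxygenase, at 16.0 to 37.0 FPKM.

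The lower members of the subfamily, many of them epoxygenases of arachidonic acid, differed most within the KO group. Cyp2c29 was at 18.4 and 11.6 FPKM (WT) against 11.3, 4.0 and 27.6 (KO). Cyp2c50 was at 5.01 and 9.12 FPKM (WT) against 12.0, 1.84 and 23.4 (KO). Cyp2c54 was at 1.17 and 1.5 FPKM (WT) against 3.25, 0.37 and 4.94 (KO). In each of the 3 genes KO 2 lay below and KO 3 above both WT libraries. The ratio of KO 3 to KO 2 was 13.3 for Cyp2c54, 12.7 for Cyp2c50, 6.90 for Cyp2c29, 5.78 for Cyp2c37, 4.52 for Cyp2c40 and 1.63 for Cyp2c68. Cyp2c37 was at 2.50 and 1.47 FPKM (WT) against 3.14, 1.23 and 7.11 (KO), and its log2 difference of 0.52 (SE 0.456) was 0.05 without KO 3 and 0.98 without KO 2. Cyp2c40 was at 4.35 to 19.7 FPKM and Cyp2c69 at 0.35 to 2.56 FPKM, both with a large share of sequence in common with other members. Cyp2c55, inducible through CAR, reached the level in WT 2 alone at 1.18 FPKM and did not enter the fit.

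The Cyp2d subfamily was the second in abundance, and 4 of its 5 members in the fit were lower in KO (median log2 difference -0.14, none past the threshold). As a sum of all 8 rows it was at 1286 and 1257 FPKM (WT) against 1006, 1150 and 1143 (KO), with no overlap (ratio 0.864). Single genes had KO wholly below WT in 5.29% of all genes. After median-ratio rescaling the sums were 1461 and 1164 (WT) against 916, 1169 and 1174 (KO), and the genotypes overlapped. Cyp2d26 (minus strand of chromosome 15, 82790101 to 82794294) was at 753 and 531 FPKM (WT) against 531, 572 and 628 (KO). Cyp2d10 was the most even of all 28 members, at 307 to 359 FPKM, a range of 1.17-fold. Its log2 difference of 0.01 was -0.05 after median-ratio rescaling.

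Cyp2d9 (plus strand of chromosome 15, 82433437 to 82456845), a testosterone hydroxylase known as male-specific in mouse liver, was at 149.6 and 338 FPKM (WT) against 119, 156 and 147 (KO). WT 2 was thus 2.26-fold above WT 1, and WT 1 lay within the range of the KO libraries. The log2 difference of -0.68 (SE 0.309, limma adjusted p = 0.999) was -0.09 without WT 2 and -1.26 without WT 1. Cyp2d40 was at 15.2 and 23.5 FPKM (WT) against 10.1, 13.3 and 18.8 (KO). Its log2 difference of -0.44 was -0.14 without WT 2, -0.24 without KO 1 and -0.74 without WT 1. Cyp2d22, often set beside human CYP2D6, was at 37.7 to 53.0 FPKM.

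Cyp2e1 (plus strand of chromosome 7, 140763739 to 140774987) oxidises ethanol, acetone and small toxicants, CCl4 and DEN among them, and marks hepatocytes around the central vein. It was at 84.4 and 192 FPKM (WT) against 159, 58.3 and 321 (KO). The lowest and the highest value were both KO libraries, 5.50-fold apart. Its log2 difference of 0.18 (SE 0.612) was -0.41 without WT 1 and 0.82 without KO 2. With a mean of 163 FPKM it ranked at place 288 of all genes, below Cyp2d9 and above Cyp2c68.

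Cyp2f2 (plus strand of chromosome 7, 27119909 to 27133660), which oxidises naphthalene and marks periportal hepatocytes as well as club cells of the lung, was high in 1 library. It was at 38.1 and 187 FPKM (WT) against 40.1, 71.3 and 48.8 (KO). WT 2 stood 4.90-fold above WT 1, and WT 1 was the lowest of all 5. The log2 difference of -0.70 (SE 0.548) was 0.43 without WT 2 and -1.83 without WT 1 (limma adjusted p = 0.102). The lung marker Scgb1a1, which club cells express, was listed at 0 in every library.

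Of the Cyp2j genes, which epoxidise arachidonic acid, Cyp2j5 was at 22.4 and 41.6 FPKM (WT) against 19.9, 17.2 and 32.9 (KO). Cyp2j6 was at 17.3 and 29.1 FPKM (WT) against 24.1 to 27.2 (KO). In both genes WT 2 was highest, and the KO values of Cyp2j6 lay between the WT libraries. Cyp2r1, a vitamin D hydroxylase, was at 3.69 and 6.93 FPKM (WT) against 3.75, 5.12 and 5.12 (KO).

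Cyp2u1 (minus strand of chromosome 3, 131288441 to 131303227), a fatty acid hydroxylase, was the 1 member in the fit whose genotypes did not overlap, and it was lower in KO. It was at 2.24 and 3.42 FPKM (WT) against 1.34, 1.58 and 1.16 (KO). The means were 2.83 ± 0.834 (SD, n = 2) and 1.36 ± 0.211 FPKM (SD, n = 3), a ratio of 0.481. The log2 difference of -0.69 (SE 0.205) had an unadjusted p of 0.00904 and did not pass after adjustment (limma adjusted p = 0.999). It was -0.46 without WT 2 and -0.30 with a pseudocount of 5. KO values below WT without overlap were found in 5.29% of all genes. All 6 B and plasma cell markers in the fit had a lower mean in KO as well, and 5 of them had KO values wholly below WT. Of the 10 listed, Cd79b and Ms4a1, outside the fit, went the other way. Cd79b was at 0.69 and 0.53 FPKM (WT) against 1.38, 0.88 and 0.80 (KO). Ms4a1 had a mean of 0.120 FPKM in WT and 0.157 in KO. The part of these markers in the Cyp2u1 values was not tested. The authors' deposited table gives Cyp2u1 a log2 fold change of -1.06 with a false discovery rate of 0.329.

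Across members, the libraries followed a shared order in part of the family. KO 3 was the highest and KO 2 the lowest library in 9 of 28 members (32.1%), against 2.07% of all genes that reached 1 FPKM. They were Cyp2b13, Cyp2e1 and 7 Cyp2c genes (Cyp2c29, Cyp2c37, Cyp2c40, Cyp2c50, Cyp2c54, Cyp2c68 and Cyp2c69). This order was noticed in the data and is given as a description, and several of these genes share sequence. KO 3 was above KO 2 in 11 of 11 Cyp2c members, against 46.2% of all genes. Cyp2a5 ran the other way, and the highest and lowest libraries of Cyp2a12, Cyp2b9 and Cyp2d10 were 1.41-fold, 1.28-fold and 1.17-fold apart.

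**Figure D5:**
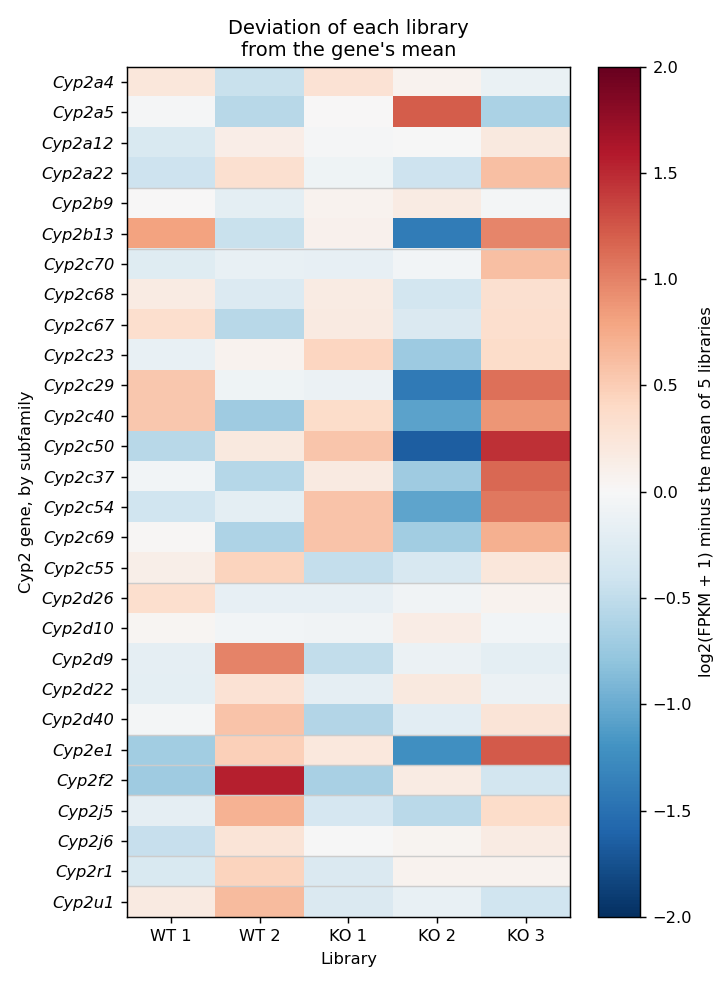
Deviation of each library from the gene's mean over 5 libraries, on the log2(FPKM + 1) scale (blue below, red above), for the 28 Cyp2 genes by subfamily. Of 11 Cyp2c genes, KO 2 is lowest in 8 and KO 3 highest in 9, and both hold for Cyp2b13 and Cyp2e1. WT 2 is high for Cyp2f2 and Cyp2d9, and KO 2 for Cyp2a5.

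Genes that mark zones of the liver lobule were set beside these values. Of 12 pericentral genes in the fit, 8 were higher in KO 3 than in KO 2, against 46.2% of all genes. Rgn, a pericentral calcium-binding protein, was at 21.3 and 53.8 FPKM (WT) against 42.3, 13.5 and 80.4 (KO), the order seen for Cyp2e1. Oat, ornithine aminotransferase, was at 6.63 and 14.2 FPKM (WT) against 8.55, 7.07 and 18.8 (KO). Glul, glutamine synthetase, was at 17.3 and 35.6 FPKM (WT) against 27.1, 17.3 and 27.0 (KO), and Cyp1a2 was highest in KO 2 at 43.9 FPKM. Macrophage and Kupffer cell markers also differed between these libraries, with 10 of 10 in the fit higher in KO 3 than in KO 2 (46.2% of all genes). All 12 of them together summed to 144 and 173 FPKM (WT) against 212, 117 and 233 (KO), none was at 0 throughout, and KO 2 was lowest. Their part in the Cyp2 values was not tested. Of 17 periportal genes, 12 were highest in WT 2, the library in which Cyp2f2 was high, and so were 35.1% of all genes that reached 1 FPKM. In KO, 15 of the 17 were lower (median log2 difference -0.32), while 61.4% of all genes were higher. By limma 0 passed (4 at an unadjusted p under 0.05). KO lay wholly below WT in 5 of the 17, against 5.29% of all genes. It lay wholly above WT in 2, Cdh1 among them, against 9.78% of all genes. Without WT 2, 9 of the 17 were lower, with a median of -0.06, while 73.7% of all genes were higher, with a median of 0.16. Hal, which degrades histidine, was at 46.0 and 58.6 FPKM (WT) against 14.1, 18.1 and 28.3 (KO). The 10 B and plasma cell markers, 6 of them in the fit, summed to 605 FPKM in WT 2, to 267 in WT 1 and to 134 to 221 in KO. Whether either has a part in the Cyp2f2 values was not tested.

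Sex-biased liver genes were compared because several Cyp2 members are sex-biased themselves. Of 14 male-biased genes in the fit, 9 were highest in WT 2, the library with the highest Cyp2d9 value, against 35.1% of all genes. The summed level of all 17 listed was 13475 FPKM there and 7042 to 9516 in the other libraries. The largest part of that sum in WT 2 was Mup20, at 1707 and 7270 FPKM (WT) against 3939, 4435 and 5225 (KO). Mup3 was at 152 and 1213 FPKM in WT 1 and WT 2, whereas Serpina1e was at 3960 and 3900. The growth hormone receptor Ghr was likewise highest in WT 2, at 65.3 FPKM against 25.7 to 44.4. Of 9 female-biased genes in the fit, 3 were higher and 6 lower in KO (61.4% of all genes were higher), and none passed the threshold. Sult2a2 was at 34.7 and 29.6 FPKM (WT) against 10.6, 7.39 and 10.4 (KO) (log2 difference -1.68, limma adjusted p = 0.0857). KO lay wholly below WT in Sult2a2 alone (5.29% of all genes), and wholly above it in Atp6v0d2 alone (9.78% of all genes). Female-biased Cyp2a4, Cyp2b9 and Cyp2b13 did not share the WT 2 peak, as each was lower in WT 2 than in WT 1. The 4 Y-linked transcripts were lowest in WT 1.

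No electron donor or haem gene passed the test. Of 17 genes of electron supply and haem synthesis, 0 passed by limma (1 at an unadjusted p under 0.05), with 11 higher and 6 lower in KO and a median log2 difference of 0.03. Por, the P450 reductase, was at 104 and 112 FPKM (WT) against 86.9, 90.8 and 108 (KO). Alas1, the rate-limiting enzyme of haem synthesis, was at 152 and 169.8 FPKM (WT) against 205, 270.1 and 246 (KO), without overlap (log2 difference 0.57, SE 0.178, unadjusted p = 0.0113, limma adjusted p = 0.999). Pgrmc1, a haem-binding partner of P450 enzymes, had a log2 difference of 0.15, and Fech, an enzyme of haem synthesis, of 0.10. Uros was at -0.17 and Ppox at -0.16.

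Among 28 transcriptional regulators of Cyp2 genes in the fit, 1 passed, Onecut1 (HNF6), which rose from 2.2 and 2.39 FPKM in WT to 11.6, 9.57 and 12.0 FPKM in KO (1.87 on the log2 scale, limma adjusted p = 0.047). In 8 of 12 alternative settings no gene passed, Onecut1 included. The forkhead factors Foxa1 and Foxa2 and the hepatocyte factor Cebpa had differences of 0.82, 0.87 and 0.63 without overlap. With Onecut1, KO lay wholly above WT in 4 of the 28, against 9.78% of all genes. After median-ratio rescaling it did so in 3 of the 28, against 9.37% of all genes. Bcl6, a repressor of sex-biased liver genes, had a difference of -1.20. It was at 1.67 and 6.47 FPKM (WT) against 1.03, 0.70 and 1.11 (KO), so WT 2 stood well above WT 1. Hnf4a was even, at 114 to 131 FPKM. PXR (Nr1i2) was at 11.5 to 19.7 FPKM, with overlap, and the dioxin receptor Ahr at 1.87 to 6.95 FPKM. CAR (Nr1i3) was at 10.3 and 2.39 FPKM (WT) against 8.56, 6.21 and 8.04 (KO), so both extremes were WT libraries. Nr1d1, a clock repressor, had a difference of -1.10 with overlap.

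Of 20 targets of CAR and PXR outside Cyp2, 13 were lower in KO, with a median log2 difference of -0.19 and 0 past the threshold by limma (3 at an unadjusted p under 0.05). Without WT 2, 10 were lower and 10 higher, with a median of 0.01, while 73.7% of all genes were higher, with a median of 0.16. In 5 of 20 the KO values lay wholly below WT, against 5.29% of all genes. Cyp3a11, the main PXR target, was at 450 and 560 FPKM (WT) against 159, 171 and 320.3 (KO) (KO minus WT on the log2 scale -1.28, limma adjusted p = 0.822). The carboxylesterase Ces2a, the drug exporter Abcb1a and Cyp3a25 had differences of -0.64, -0.69 and -0.62. Akr1b7 had -1.11 with overlap, and Papss2, which makes the sulfate donor, 0.36. Cyp2 members known as CAR targets gave mixed values, with Cyp2b10 and Cyp2c55 lower on average in KO and Cyp2c29 widely scattered. The highest value was 0.73 FPKM for Cyp2b10 and 1.18 FPKM for Cyp2c55, and the genotypes overlapped in Cyp2c55. Of all 10 Cyp2c members in the fit, 9 were higher in KO.

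Outside the family, 27 other P450 genes entered the fit, with 13 higher and 14 lower in KO, and 0 passed by limma (2 at an unadjusted p under 0.05). Cyp1a2 had a log2 difference of 0.03. Whether Cyp2 genes differ from other P450 genes was not tested.

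The promoters of members were read to see what close copies share. RefSeq promoter entries (GRCm38.p6) were found for 24 of the 28 members, and the 250 bases before the start were searched on both strands for short motifs of liver factors. The HNF4A motif CAAAGTNCA was found in 8 of 24, against 1.19% of all promoters. These were 7 Cyp2c genes and Cyp2d26, and the Cyp2c promoters are partly copies of each other, so they are not independent. The HNF6 core ATTGAT was found in 5 of 24 (all promoters: 6.72%), Cyp2c37, Cyp2c50, Cyp2c67, Cyp2c68 and Cyp2c69. The TATA box letters TATAAA were found in 14 of 24 (all promoters: 12.4%), the HNF1 motif GTTAAT in 6 (6.43%), the C/EBP motif TTGCNNAA in 7 (9.56%), and the FOXA motif TGTTTAC in 1 (3.17%). The STAT5 motif TTCNNNGAA was found in 0 of 24 (7.02%). Matches of different motifs did not overlap in these promoters. A match is a string of letters and was not tested for binding.

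The promoters of Cyp2a4 (chr7:26306942-26307191, plus strand) and Cyp2a5 (chr7:26835089-26835338, plus strand) are shown because the genes differ in level while these bases are 98.4% identical. Cyp2c37 (chr19:39992174-39992423, plus strand) and Cyp2c50 (chr19:40089429-40089678, plus strand), 87.8% identical, stand for the genes that were low in KO 2 and high in KO 3. Capitals mark the motif matches, which are GTTAAT, the C/EBP letters and TATAAA in the Cyp2a promoters. In Cyp2c50 they are the HNF4A letters and ATTGAT, and Cyp2c37 has in addition a C/EBP match and a second HNF6 core on the other strand, which overlaps the first.

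Cyp2a4: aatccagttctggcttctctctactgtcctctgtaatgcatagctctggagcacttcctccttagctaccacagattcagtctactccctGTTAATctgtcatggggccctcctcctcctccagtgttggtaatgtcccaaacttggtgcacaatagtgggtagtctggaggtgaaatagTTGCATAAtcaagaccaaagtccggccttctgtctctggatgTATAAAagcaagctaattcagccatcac

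Cyp2a5: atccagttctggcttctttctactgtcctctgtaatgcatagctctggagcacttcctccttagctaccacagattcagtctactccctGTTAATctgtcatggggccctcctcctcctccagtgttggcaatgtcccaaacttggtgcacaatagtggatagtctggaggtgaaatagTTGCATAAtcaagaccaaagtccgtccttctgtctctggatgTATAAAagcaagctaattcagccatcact

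Cyp2c37: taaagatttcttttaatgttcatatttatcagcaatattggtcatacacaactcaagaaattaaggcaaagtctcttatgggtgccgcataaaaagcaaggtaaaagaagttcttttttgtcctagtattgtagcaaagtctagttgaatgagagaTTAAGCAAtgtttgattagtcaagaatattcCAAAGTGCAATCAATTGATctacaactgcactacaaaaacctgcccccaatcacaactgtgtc

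Cyp2c50: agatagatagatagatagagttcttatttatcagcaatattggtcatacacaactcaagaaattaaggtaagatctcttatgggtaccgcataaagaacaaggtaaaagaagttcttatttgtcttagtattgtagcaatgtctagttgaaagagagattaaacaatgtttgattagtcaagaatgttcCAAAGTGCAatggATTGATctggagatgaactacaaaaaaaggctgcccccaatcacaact

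The 5 genes with the HNF6 core had log2 differences of 0.52 (Cyp2c37), 0.31 (Cyp2c50), 0.19 (Cyp2c67), 0.09 (Cyp2c68) and 0.49 (Cyp2c69) in KO, where Onecut1 was higher, and none of them passed the test. Without KO 3 they were 0.05, -0.36, 0.06, -0.05 and 0.23 in the same order. Without KO 2 they were 0.98, 1.19, 0.38, 0.30 and 0.93, so their size depended on both libraries. Without WT 2, Cyp2c67 and Cyp2c68 were at -0.26 and -0.13, and without WT 1 at 0.64 and 0.31. The searched promoters of Cyp2c70, Cyp2c40 and Cyp2c29 held no HNF6 core, and these genes had log2 differences of 0.32, 0.14 and -0.37. Of the 10 Cyp2c genes in the fit, with or without the core, 9 were higher in KO. A link with Onecut1 was not tested.

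Of the 20 members below 1 FPKM, 9 were listed at 0 in every library, among them Cyp2w1, Cyp2t4 and Cyp2b19. Just inside the level were Cyp2c55 with a highest value of 1.18 FPKM and Cyp2c69 with 2.56, and just outside it Cyp2s1 with 0.83 and Cyp2b10 with 0.73. Cyp2g1, an enzyme of the olfactory mucosa, was at 0.22 and 0.15 FPKM (WT) against 0.07, 0.07 and 0.06 (KO).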

How the data were processed

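RNA sequencing libraries of 2 WT and 3 KO tumours were used. RNA was extracted with Trizol, per the labels' protocols. Named without a role, per the submitters' processing notes, are mm10, HISAT2, StringTie, bcl2fastq 2.0, limma and DESeq2. Deposited values are FPKM to 2 decimals, per the file headers, with the authors' own log2 fold change, p-value and false discovery rate. Depth is unknown, so no interval was computed. Genotypes and replicate numbers came from the titles. P-values may measure only spread between samples, which may be technical.

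Genotypes were compared with limma 3.58.1 (R 4.3.3; trend, two-sided, 3 residual degrees of freedom) on log2(FPKM + 1), which understates changes of low genes. Genes with a mean of at least 1 FPKM were tested, with Benjamini-Hochberg adjustment over all and a threshold of 0.05. The fit was tested on simulated data. All 28 members are named. Of other lists, up to 6 genes with the smallest unadjusted p are named, and Por, Nr1i2, Nr1i3, Hnf4a, Onecut1, Ahr, Glul, Cyp1a2, Alb and Ddx3y whatever their values. Rgn, Oat, Ghr, Cyp2b10, Cyp2g1, the promoters shown and the order of libraries were chosen after their values were seen. So were Mup20, Mup3 and the B and plasma cell markers named outside the fit. Members and lists were chosen with earlier results of these data known. Coordinates and coding sequences come from GENCODE vM21 (GRCm38), and were aligned with Biopython 1.88. Figures used matplotlib 3.10.9 in Python 3.11.15.

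Alternatives were pseudocounts of 0.1 and 5, no filter, a mean of at least 5 FPKM, median-ratio rescaling, equal library sums, a replicate block, and leaving out each library. Subfamilies and lists with a library left out, and group overlap after rescaling, were added after seeing the data.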

Additional observations from a re-analysis of the deposited data

How the results depend on the processing

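No Cyp2 member passed the threshold as reported or in any of the 12 alternatives, with a smallest adjusted p of 0.0799 (Cyp2a5, replicate block). Over all genes the 1 call became 0 with a pseudocount of 5, median-ratio rescaling, equal library sums, no filter or the stricter filter (mean FPKM 5), 62 with the replicate block, and 0 to 17 with a library left out. The log2 ratio of the summed Cyp2 FPKM was 0.12, and -0.01 to 0.25 with a library left out. The median log2 difference of the members was 0.09, and -0.11 to 0.19 over the alternatives. The sign held in all alternatives for 8 members, although their values moved with a library left out: Cyp2b9 0.06 to 0.26, Cyp2c37 0.05 to 0.98, Cyp2c54 0.05 to 1.11, Cyp2c69 0.17 to 0.93, Cyp2c70 0.08 to 0.46, Cyp2d40 -0.74 to -0.14, Cyp2d9 -1.26 to -0.09 and Cyp2u1 -0.91 to -0.46. It turned in 19 with a library left out, whose log2 differences ranged as follows: Cyp2a12 -0.08 to 0.36, Cyp2a22 -0.28 to 0.45, Cyp2a4 -0.14 to 0.52, Cyp2a5 -0.03 to 0.90, Cyp2b13 -0.92 to 0.35, Cyp2c23 -0.14 to 0.44, Cyp2c29 -0.99 to 0.26, Cyp2c40 -0.48 to 0.76, Cyp2c50 -0.36 to 1.19, Cyp2c67 -0.26 to 0.64, Cyp2c68 -0.13 to 0.31, Cyp2d10 -0.06 to 0.06, Cyp2d22 -0.32 to 0.16, Cyp2d26 -0.39 to 0.12, Cyp2e1 -0.41 to 0.82, Cyp2f2 -1.83 to 0.43, Cyp2j5 -0.86 to 0.00, Cyp2j6 -0.19 to 0.53, Cyp2r1 -0.50 to 0.26. Median-ratio rescaling turned Cyp2d10 (-0.05). With the replicate block, in which KO 3 has no partner, Cyp2a22 (-0.20), Cyp2c23 (-0.11), Cyp2c40 (-0.27), Cyp2c50 (-0.36), Cyp2c68 (-0.05) and Cyp2e1 (-0.40) turned. The cause was not tested. Deviations of same-numbered libraries correlated at 0.0884 (number 1) and -0.241 (number 2), and nothing in the labels pairs them.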
